A study of Mus musculus with 5 samples.

Results

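A set of 121 genes was read in hair follicle stem cells sorted from mouse skin; they encode chemokines, interleukins, related cytokines and their receptors. The genes were taken by symbol from the 21833 protein-coding genes of a table of 55357 genes, whatever their level. They are the numbered Cxcl and Ccl genes, Cx3cl1, the numbered interleukins and interleukin receptors (with Il1rn, Il36rn and the Il1rl genes), Tslp, Csf1, Csf2, Csf3, Lif and Osmr. The choice by symbol leaves out some partners, such as Il36g, Il18bp, Il6st and Lifr, which were read as a list of their own.

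The PRC1 i2KO group (3 libraries) came from mice of genotype K15-CrePR1:Ring1a-/-, Ring1bflox/flox, and the Control group (2 libraries) from Ring1a-/-, Ring1bflox/flox mice without the Cre transgene. K15-CrePR1 is a Cre recombinase under a keratin 15 promoter that acts once RU-486 is given, so deletion is limited to cells in which that promoter is active. All mice had 1% RU-486 put on the skin for 10 days from day 50 and were sampled 15 days after the last of it, at day 75. Cells were sorted as EpCAM+, Sca1-, CD34+ with high α6-integrin. Ring1a and Ring1b are the ubiquitin ligases of the Polycomb complex PRC1. By genotype both groups lack Ring1a, so they differ by design in Ring1b deletion together with the presence of Cre. The labels do not tie the libraries to separate animals, so the p-values rest on a spread among samples that may be technical only.

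Libraries held between 8270419 and 32463173 estimated reads, with Control replicate 1 the shallowest and Control replicate 3 the deepest. Rnf2, which encodes Ring1b, stood at 48.1, 46.6 and 50.2 CPM (reads scaled to library size) in replicates 1, 2 and 3 of PRC1 i2KO, against 67.9 and 57.7 CPM in replicates 1 and 3 of Control (log2 fold change -0.37, edgeR adjusted p = 0.0363). Ring1, the gene of Ring1a, had reads in all libraries, at 19.6, 28.6 and 24.8 CPM in PRC1 i2KO and 30.3 and 27.5 CPM in Control (edgeR adjusted p = 0.36). Counts over a whole gene include exons that need not be deleted, so neither value checks the genotype. Values below keep that replicate order. Cells had been sorted as CD34-positive, yet Cd34 transcripts stood at 11, 12.3 and 37.2 CPM in PRC1 i2KO, against 1548 and 1697 CPM in Control. Summed over 8 bulge markers, the level was 4169 to 6007 CPM in PRC1 i2KO and 18755 to 19814 CPM in Control. The same sum over 7 markers of the infundibulum and junctional zone was 8340.1 to 8539 CPM in PRC1 i2KO and 579 to 811 CPM in Control, and over 6 markers of cycling cells 317 to 489 CPM in PRC1 i2KO and 17.3 to 36.2 CPM in Control. Sebaceous gland markers, all 7 of which rose, summed to 2474 to 3082 CPM in PRC1 i2KO and 214 to 221 CPM in Control, and those of the suprabasal epidermis, all 6 of which rose, to 1730.2 to 2636 CPM in PRC1 i2KO and 981 to 995 CPM in Control. Melanocyte markers (1 of 5 rose) summed to 22.2 to 26.4 CPM in PRC1 i2KO and 4.6 to 6.52 CPM in Control, and fibroblast markers (1 of 6 rose and 3 fell) to 32.7 to 33 CPM in PRC1 i2KO and 71.8 to 73.8 CPM in Control. In bulk RNA, fewer cells of a type and less RNA per cell cannot be told apart, and what these shifts contribute to the values below was not tested.

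Chemokines are small secreted or membrane-bound proteins that attract leukocytes through G protein-coupled receptors. Interleukins and related cytokines act through receptors built of a ligand-binding chain and a shared signalling chain, most of which pass the signal to JAK kinases and STAT factors. The IL-1 and IL-17 receptor families signal instead to NF-κB. In the hair follicle, keratinocytes themselves make several of these proteins, which attract and keep Langerhans cells and T cells around the follicle.

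Markers of leukocytes were near 0 in every library. Ptprc, the pan-leukocyte CD45 gene, stood at 0.207, 0.329 and 1.16 CPM in PRC1 i2KO, against 0.246 and 0.871 CPM in Control. The sum over 5 leukocyte markers was 2.59 to 6.21 CPM in PRC1 i2KO and 2.58 to 4.31 CPM in Control. Among them Cd52, too low to test, had 2, 25 and 7 reads in PRC1 i2KO and 1 and 0 in Control. The groups overlapped for Ptprc, Laptm5, Coro1a and Cd53. Of 7 T cell markers Cd3d had no read and Cd3e stayed between 0.0311 and 0.311 CPM. Cd247 had 15, 4 and 10 reads in PRC1 i2KO and 1 and 79 in Control, and did not pass (edgeR adjusted p = 0.557). Reads of Cd3g (0, 4 and 6), Trdc (0, 9 and 0) and Trac (0, 1 and 0) were in PRC1 i2KO only. Thy1, which is not limited to T cells, was the 1 that rose. The list summed to 10.7 to 15.1 CPM in PRC1 i2KO and 6.28 to 7.0 CPM in Control. All 5 mast cell markers were at 0, as was Lyz2, a defining gene of myeloid cells. Of 5 neutrophil markers Ly6g, Mpo and Retnlg were at 0, S100a9 had 28 reads and S100a8 had 5, each in 1 PRC1 i2KO library, and the list summed to 0, 0.235 and 1.47 CPM in PRC1 i2KO, against 0 and 0 CPM in Control. Endothelial markers, 5 in number, summed to 0, 0.705 and 4.05 CPM in PRC1 i2KO and 1.35 and 0.591 CPM in Control. Among them Cdh5, Tie1 and Emcn had 18, 12 and 6 reads, all in PRC1 i2KO replicate 3. Summed over 6 macrophage markers the level was 3.47 to 7.98 CPM in PRC1 i2KO and 5.44 to 6.89 CPM in Control. Cd207, the langerin gene of Langerhans cells, stood at 2.38, 4.18 and 1.26 CPM in PRC1 i2KO, against 3.32 and 1.43 CPM in Control. Of 6 markers of Langerhans and dendritic cells the 3 that rose were Cd74, H2-Aa and H2-Ab1, genes of MHC class II presentation. The 6 together summed to 106 to 150.3 CPM in PRC1 i2KO and 34.5 to 43.0 CPM in Control. Itgax, also on that list and too low to test, had 8, 9 and 8 reads in PRC1 i2KO and 3 and 0 in Control.

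Of the 121 genes, 34 had no read in any library and 58 had enough reads to test. In PRC1 i2KO, 25 of the 58 rose, 6 fell and 27 did not pass (edgeR's quasi-likelihood F test, adjusted p threshold 0.05). The 31 called genes are 53.4% of those tested, against 33.9% of all 15665 genes tested (18.8% rose and 15.1% fell). Among protein-coding genes alone, to which the set belongs, 37.6% of 13301 tested were called. Most shares by class and list below are set against the 33.9%, although the 37.6% is the nearer background. A gene that is nearly absent from one group passes the filter on low counts only through the other, so the 53.4% describes the tested genes and not all 121. The same holds for the shares by class and list below. The median log2 fold change of the 58 tested genes was 1.15, against -0.01 over all tested genes and 0.01 over the protein-coding ones. Genes nearly absent from Control, such as Il2rg with 1 and 0 reads there, lie above 1.15. Their passing the filter raises that median, so it too describes the tested genes only. The libraries of the groups did not overlap in 43 of the 58 genes (74.1%). That share was 59.5% over all tested genes and 62.5% over the protein-coding ones. Genes nearly absent from 1 group enter the 74.1% through the filter as well, so it too describes the tested genes only. The rises were mostly of genes with low levels in Control, and the steepest falls were of the chemokine gene Cxcl14 and the receptor gene Il31ra, the first and the fourth in Control by TPM.

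**Figure D1:**
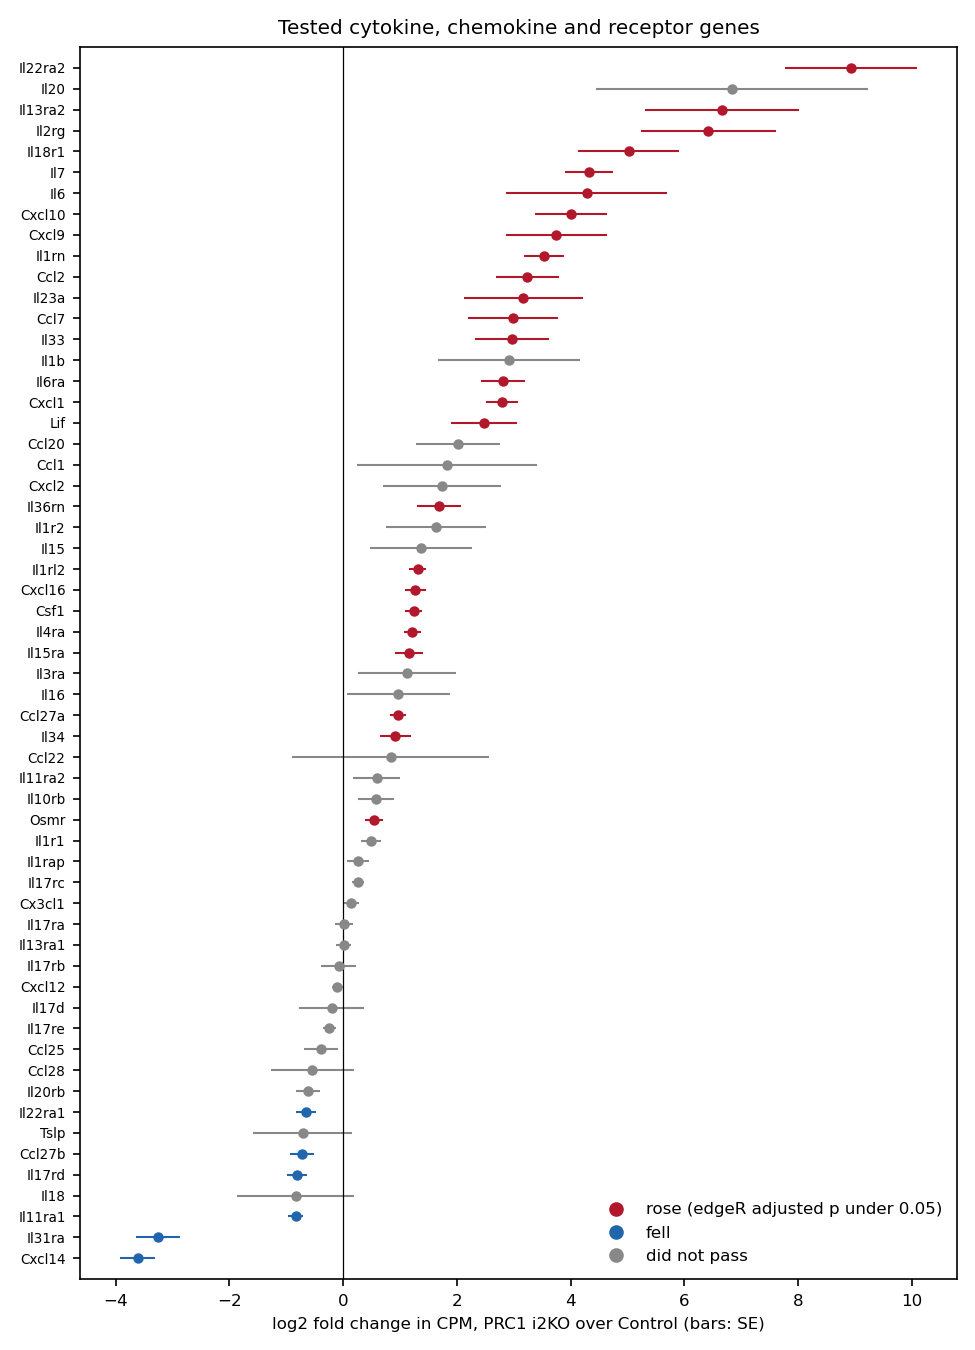
Log2 fold change in CPM (x axis, PRC1 i2KO over Control, bars are SE) of the 58 tested genes, one per row and in order of that value. The 25 red points rose, the 6 blue points fell and the 27 grey points did not pass; values run from -3.61 for Cxcl14 to a fitted 8.93 for Il22ra2, whose Control libraries had no read.

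Cxcl14 and Il31ra held most of the summed level in Control. The 121 genes together took 2391, 2424 and 2367 CPM in PRC1 i2KO, against 5874 and 6406 CPM in Control. Cxcl14 made up 9.24%, 9.43% and 17.4% of that sum in PRC1 i2KO, against 55.4% and 58.5% in Control, and Il31ra 3.06%, 3.2% and 6.67% in PRC1 i2KO, against 16.5% and 15.5% in Control. Without these 2 genes the sum in CPM was higher in PRC1 i2KO, with 2097, 2118 and 1799 CPM in PRC1 i2KO and 1648 and 1664 CPM in Control. Summed in TPM, per gene length, the rest overlapped between the groups, at 3326, 3413 and 2644 TPM in PRC1 i2KO and 2841 and 2988 TPM in Control. At least 1 read was found for 70, 70 and 79 of the genes in PRC1 i2KO and for 60 and 59 in Control. The deepest library, Control replicate 3, thus had reads for the fewest of them.

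**Figure D2:**
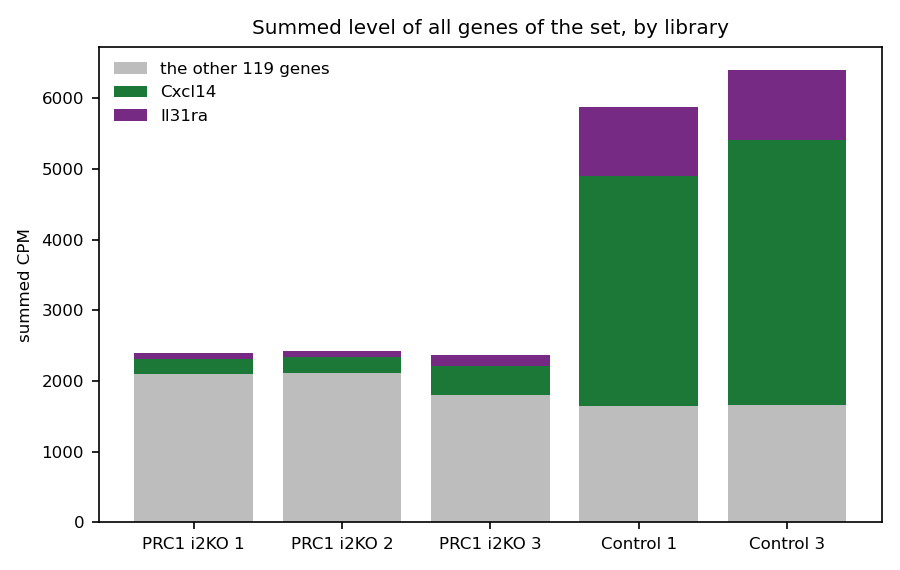
Summed CPM (y axis) of the 121 genes in each library (x axis), split into Cxcl14 (green), Il31ra (purple) and all others (grey). The 2 Control bars reach 5874 and 6406 CPM, mostly Cxcl14, and the 3 PRC1 i2KO bars lie between 2367 and 2424 CPM, mostly grey.

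Of 12 CXC chemokine genes 7 were tested, of which 4 rose and 1 fell (71.4% called, against 33.9% over all tested genes). Cxcl14 (ENSMUSG00000021508), an epithelial chemokine present in healthy skin, stood at 221, 228 and 411 CPM in PRC1 i2KO, against 3256 and 3751 CPM in Control. The groups were far apart, with PRC1 i2KO replicate 3 the least reduced, and the fall was 12.2-fold (log2 fold change -3.61, SE 0.31, edgeR adjusted p = 4.85e-04). By mean TPM, which is per gene length, Cxcl14 was the highest of the 121 genes in Control (3733 TPM) and the third in PRC1 i2KO (274 TPM). Cxcl12, the ligand of Cxcr4, was at similar levels in all libraries, at 239.7, 238 and 210.2 CPM in PRC1 i2KO and 237 and 255 CPM in Control (log2 fold change -0.10, SE 0.10, edgeR adjusted p = 0.497).

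The other called CXC genes rose. Cxcl1, which attracts neutrophils through Cxcr2, stood at 40.8, 44.3 and 28.7 CPM in PRC1 i2KO, against 7.14 and 4.42 CPM in Control, a rise of 6.91-fold (log2 fold change 2.79, SE 0.28, edgeR adjusted p = 9.34e-05). Cxcl16, a membrane-anchored chemokine that binds Cxcr6, stood at 203, 201 and 137 CPM in PRC1 i2KO, against 78.6 and 70.5 CPM in Control (2.42-fold, edgeR adjusted p = 0.00102). The libraries of the groups did not overlap for either gene.

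Cxcl10 and Cxcl9, interferon-induced ligands of Cxcr3, both rose and were low in Control. Cxcl10 stood at 18.8, 21.7 and 7.58 CPM in PRC1 i2KO, against 1.6 and 0.684 CPM in Control (log2 fold change 4.01, SE 0.63, edgeR adjusted p = 0.00254; 3.31 without Control replicate 3). Cxcl9 stood at 7.67, 7.1 and 3.32 CPM in PRC1 i2KO, against 1.11 and 0.124 CPM in Control. The log2 fold change was 3.75, with SE 0.88 (edgeR adjusted p = 0.0124). It hung on the controls, at 5.52 with Control replicate 1 left out and 2.42 with Control replicate 3 left out, and the call was lost on log2(TPM + 1) (limma adjusted p = 0.17). In both genes PRC1 i2KO replicate 3 was the lowest of its group. Cxcl10 lies over the gene Art3 in RefSeq's annotation, so its reads are uncertain to that extent. The same holds for Cxcl16, which overlaps the protein-coding gene Zmynd15. It holds as well for Csf1, Il6, Il6ra, Il7, Il33 and Il34, which overlap long non-coding RNA genes, and for Il1rl2, which overlaps a pseudogene. Cxcl2 had 8, 32 and 7 reads in PRC1 i2KO and 2 and 9 in Control and did not pass (edgeR adjusted p = 0.23).

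Cxcl16 also rose, but only the promoters of Cxcl1, Cxcl10 and Cxcl9 are shown, as examples of CXC genes that rose. Each is 300 bases from RefSeq (GRCm38.p6), from 250 bases before to 50 after the start of the gene, at chr5:90890995-90891294 on the + strand for Cxcl1, at chr5:92348840-92349139 on the - strand for Cxcl10 and at chr5:92328030-92328329 on the - strand for Cxcl9. Capitals mark matches on either strand to the NF-κB consensus or to the interferon-stimulated response element (GAAA, any 2 bases, GAAA).
Cxcl1: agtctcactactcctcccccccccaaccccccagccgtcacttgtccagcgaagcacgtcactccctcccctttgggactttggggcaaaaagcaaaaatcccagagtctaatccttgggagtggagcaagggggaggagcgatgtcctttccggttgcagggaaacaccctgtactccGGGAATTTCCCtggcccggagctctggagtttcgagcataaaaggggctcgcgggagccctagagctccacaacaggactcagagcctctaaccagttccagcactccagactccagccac
Cxcl10: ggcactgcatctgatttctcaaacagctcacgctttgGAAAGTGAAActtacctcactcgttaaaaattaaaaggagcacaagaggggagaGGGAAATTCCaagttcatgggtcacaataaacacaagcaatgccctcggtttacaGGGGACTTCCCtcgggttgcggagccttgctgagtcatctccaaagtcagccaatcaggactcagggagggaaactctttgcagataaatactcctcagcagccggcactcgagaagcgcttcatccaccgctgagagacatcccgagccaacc
Cxcl9: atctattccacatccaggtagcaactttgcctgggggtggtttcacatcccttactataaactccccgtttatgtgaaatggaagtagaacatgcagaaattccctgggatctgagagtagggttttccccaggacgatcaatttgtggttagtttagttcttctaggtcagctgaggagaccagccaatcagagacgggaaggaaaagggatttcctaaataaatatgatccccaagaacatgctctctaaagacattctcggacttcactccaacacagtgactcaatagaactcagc
Cxcl1 held 1 stretch, made of 2 overlapping matches to the NF-κB consensus. Cxcl10 held 3 such matches, 2 of them overlapping, and 1 match to the interferon-stimulated element, and no match was found in this window of Cxcl9.

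The promoters of Cxcl14 and Il31ra are shown because these genes had the steepest falls; capitals mark CG dinucleotides, the feature of CpG islands, at which Polycomb complexes are known to gather in mammalian genomes. The windows are at chr13:56296502-56296801 and chr13:112580613-112580912 (GRCm38.p6), both on the - strand.
Cxcl14: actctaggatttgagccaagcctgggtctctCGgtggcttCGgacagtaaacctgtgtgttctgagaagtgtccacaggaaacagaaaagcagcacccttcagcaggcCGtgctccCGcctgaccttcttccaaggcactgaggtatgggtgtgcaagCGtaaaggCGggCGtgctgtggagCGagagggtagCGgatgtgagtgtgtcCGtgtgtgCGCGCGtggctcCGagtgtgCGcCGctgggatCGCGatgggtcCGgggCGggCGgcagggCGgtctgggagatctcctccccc
Il31ra: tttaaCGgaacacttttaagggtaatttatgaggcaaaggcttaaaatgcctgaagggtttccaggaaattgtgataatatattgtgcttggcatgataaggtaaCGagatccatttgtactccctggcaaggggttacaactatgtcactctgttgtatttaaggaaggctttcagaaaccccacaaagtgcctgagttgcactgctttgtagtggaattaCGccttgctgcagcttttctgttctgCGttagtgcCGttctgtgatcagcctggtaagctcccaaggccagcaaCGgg
Cxcl14 held 22 CG (observed over expected 0.772) and Il31ra held 6 (0.407), against a median of 7 (0.384) over all 32851 promoter windows, so these genes differed in this feature. The Cxcl14 window also held 1 match to the interferon-stimulated element.

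Over the whole set, RefSeq promoters were matched for 89 of the 121 genes, with 109 windows. An observed over expected CG ratio above 0.6 was found in 18 of the 109 windows (16.5%), against 35.8% of all windows. The NF-κB consensus was matched in 18 windows (16.5%), against 8.46% of all windows of the same length. Genes that rose had 25 windows, which come from only 17 genes, as the others were not matched. Of these 25 windows 7 (28%) held it, those of Ccl27a, Csf1, Cxcl1, Cxcl10, Il4ra, Il6 and Lif. Of the 10 windows of 6 genes that fell 1 held it, and of the 27 windows of 23 genes that did not pass 5 (18.5%). The interferon-stimulated element was in 6 of the 109 windows (5.5%), against 3.44% of all windows. These are matches of letters and say nothing on binding.

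Of 24 CC chemokine genes 9 were tested, of which 3 rose and 1 fell (44.4% called). Over all tested genes 33.9% were called, and over protein-coding ones 37.6%. Ccl2 and Ccl7, neighbouring genes whose products attract monocytes through Ccr2, both rose. Ccl2 stood at 13.3, 14.1 and 5.0 CPM in PRC1 i2KO, against 1.6 and 0.871 CPM in Control (9.46-fold, log2 fold change 3.24, SE 0.56, edgeR adjusted p = 0.00238). Ccl7 stood at 9.02, 7.57 and 1.9 CPM in PRC1 i2KO, against 1.23 and 0.498 CPM in Control (log2 fold change 2.99, SE 0.79, edgeR adjusted p = 0.0213). Replicate 3 of PRC1 i2KO came close to Control replicate 1 for Ccl7. The call of Ccl7 was lost without Control replicate 3 (log2 fold change 2.3, adjusted p = 0.179), without PRC1 i2KO replicate 1 (0.0564) or replicate 2 (0.0641), and its value was 3.6 without Control replicate 1.

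Ccl27a and Ccl27b are near-identical copies of a keratinocyte chemokine that binds Ccr10, and each overlaps a copy of the IL-11 receptor gene. Ccl27a stood at 191, 179 and 143 CPM in PRC1 i2KO, against 84.3 and 91.0 CPM in Control (1.95-fold, edgeR adjusted p = 5.31e-04). Ccl27b stood at 76.2, 85.9 and 50.3 CPM in PRC1 i2KO, against 116 and 117 CPM in Control (1.65-fold lower, edgeR adjusted p = 0.0368), a call lost without Control replicate 1 (adjusted p = 0.126), Control replicate 3 (0.141) or PRC1 i2KO replicate 1 (0.0706). Reads of such copies are shared out by estimation, so each value is uncertain. Their sum was 267, 265 and 193 CPM in PRC1 i2KO, against 200.4 and 208 CPM in Control, so the groups overlapped. On the TPM scale the copies ranked first (Ccl27a, 1223 TPM) and second (Ccl27b, 552 TPM) of the 121 genes in PRC1 i2KO; in Control they stood at 658 and 1004 TPM.

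Ccl20, the ligand of Ccr6, had 12, 53 and 35 reads in PRC1 i2KO and 4 and 14 in Control. It narrowly missed the threshold (log2 fold change 2.02, SE 0.73, edgeR adjusted p = 0.0585). DESeq2 called it (0.0205), as did edgeR with a filter at a mean of 1 CPM (0.0401) and limma on log2(TPM + 1) (0.0356) and log2(TPM + 0.1) (0.0352). The other alternatives did not, with adjusted p from 0.0541 without PRC1 i2KO replicate 1 to 0.216 with the replicate block. Ccl25, the ligand of Ccr9, was at 5.6, 5.6 and 6.69 CPM in PRC1 i2KO and 6.15 and 9.27 CPM in Control (edgeR adjusted p = 0.358). Cx3cl1, or fractalkine, a membrane-anchored chemokine, was at 30.5, 33.3 and 29.8 CPM in PRC1 i2KO and 27.7 and 28.8 CPM in Control (log2 fold change 0.14, SE 0.14, edgeR adjusted p = 0.48). Its neighbours Ccl22 and Ccl17 had at most 18 reads in a library and no read at all.

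**Figure D3:**
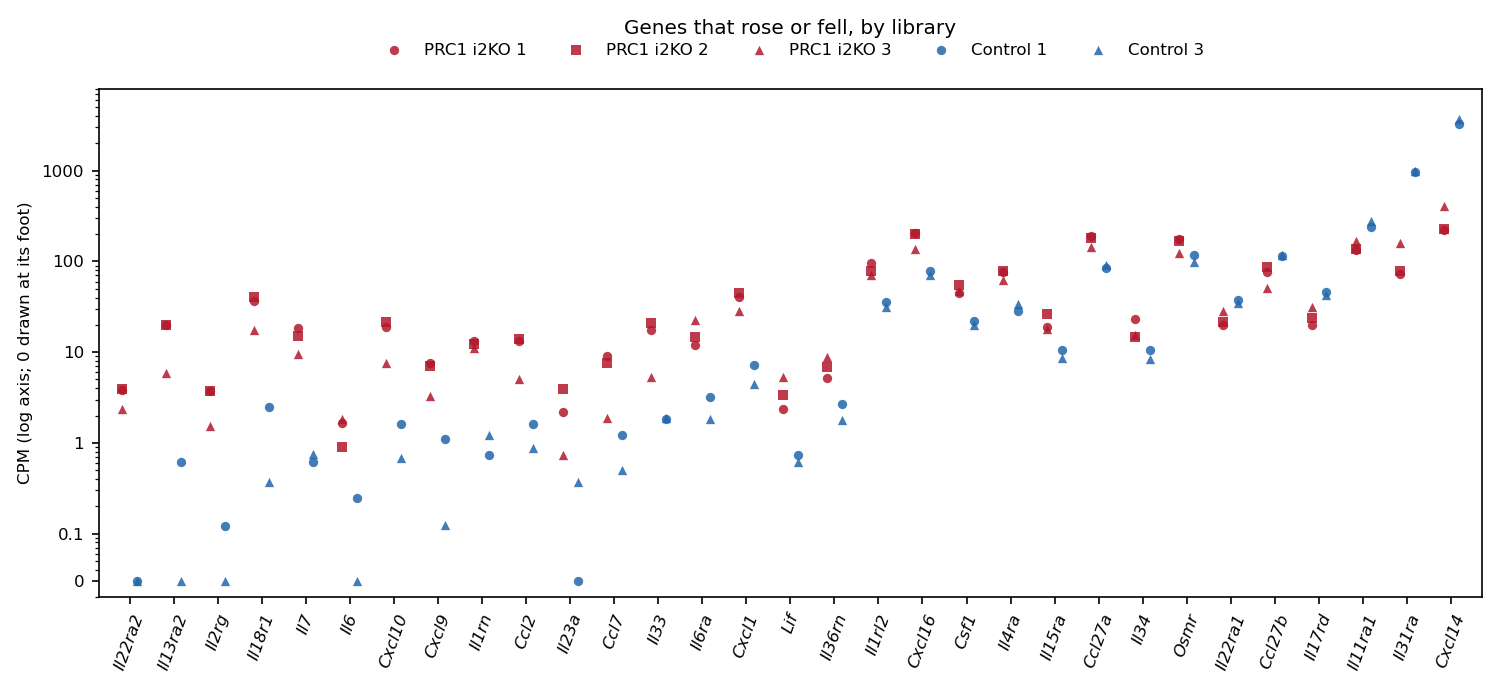
CPM (y axis, log scale, with 0 drawn at the foot) of the 31 genes that rose or fell (x axis, from the largest rise to the largest fall) in each library. Red symbols are PRC1 i2KO replicates 1 (circle), 2 (square) and 3 (triangle), and blue symbols are Control replicates 1 (circle) and 3 (triangle); the colours do not overlap in any of the 31, and the red triangle is the one nearest to blue in 24.

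Among 36 interleukin genes 13 had no read and 11 were tested, of which 5 rose and none fell (45.5% called). Over all tested genes 33.9% were called, and over protein-coding ones 37.6%. Il6 (2 and 0 reads in Control), Il1b (0 and 4) and Il20 (0 and 0) passed the filter on low counts only through PRC1 i2KO. The 45.5% thus rests in part on that filter. Il7, a survival factor for T cells that follicle keratinocytes make, stood at 18.4, 14.9 and 9.58 CPM in PRC1 i2KO, against 0.615 and 0.746 CPM in Control. That was a rise of 20.0-fold (log2 fold change 4.32, SE 0.42, edgeR adjusted p = 5.35e-05) with no overlap between the groups. Il33, a nuclear cytokine released by damaged epithelium, stood at 17.7, 21.0 and 5.26 CPM in PRC1 i2KO, against 1.85 and 1.87 CPM in Control (log2 fold change 2.97, SE 0.65, edgeR adjusted p = 0.0132). The call of Il33 was lost without Control replicate 1 or replicate 3, with log2 fold changes of 2.96 and 2.98. Il1rl1, its receptor, had 3 reads in all over the PRC1 i2KO libraries and none in Control.

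Il34 and Csf1 encode the 2 ligands of the receptor Csf1r, on which Langerhans cells and macrophages depend. Csf1 stood at 45.4, 54.3 and 46.6 CPM in PRC1 i2KO, against 21.8 and 19.8 CPM in Control (2.36-fold, log2 fold change 1.24, SE 0.15, edgeR adjusted p = 1.81e-04). Il34 stood at 23.4, 14.7 and 15.3 CPM in PRC1 i2KO, against 10.5 and 8.37 CPM in Control (1.9-fold, edgeR adjusted p = 0.0241), a call lost without Control replicate 3 (adjusted p = 0.167) or PRC1 i2KO replicate 1 (0.0759). Csf1r itself stayed between 1.11 and 2.11 CPM in all 5 libraries. Both ligands were thus higher in every PRC1 i2KO library than in either control.

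Il6 and Lif, which signal through the shared chain Il6st, were called at low levels. Il6 had 16, 19 and 35 reads in PRC1 i2KO, against 2 and 0 in Control, a ratio of 28.2 in summed reads scaled to depth (exact 95% binomial interval 7.53 to 238). Its call (edgeR adjusted p = 0.0403) was lost by leaving out Control replicate 3 (0.203) or PRC1 i2KO replicate 1 (0.0759) and with the replicate number as a block (0.0702), and its fitted log2 fold change of 4.28 was 7.91 with Control replicate 1 left out and 2.52 with Control replicate 3 left out. Lif stood at 2.38, 3.34 and 5.37 CPM in PRC1 i2KO, against 0.738 and 0.622 CPM in Control (log2 fold change 2.47, SE 0.58, edgeR adjusted p = 0.00896). The call of Lif was lost without Control replicate 3 (0.0673) and on log2(TPM + 1) (limma adjusted p = 0.056).

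Il23a, the p19 chain of IL-23, had 21, 83 and 14 reads in PRC1 i2KO, against 0 and 12 in Control (log2 fold change 3.17, SE 1.05, edgeR adjusted p = 0.0425). Leaving out Control replicate 1 (adjusted p = 0.118, log2 fold change 2.59) or PRC1 i2KO replicate 1 (0.0893) or 2 (0.159, log2 fold change 2.5) ended that call, as did the replicate block (0.199) and log2(TPM + 1) (limma adjusted p = 0.0597); without Control replicate 3, which left Control at 0 reads, the fitted value was 8.05. Il12b, which encodes the other chain of IL-23, had no read. Il20 had 0, 18 and 27 reads in PRC1 i2KO and none in Control, at least 12.1-fold higher against a floor of 3 reads over the group, but did not pass (edgeR adjusted p = 0.0559). It was called by DESeq2 (0.0303), without a filter on low counts (0.00931) and without PRC1 i2KO replicate 1 (0.0214).

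Apart from Il33, which rose, the alarm cytokines of keratinocytes read here, Il1a, Il1b, Il18 and Tslp, had few reads in either group. Il1a had 1, 3 and 7 reads in PRC1 i2KO, against 1 and 0 in Control, and was not tested (ratio 8.88, exact 95% binomial interval 1.29 to 382). Il1b had 5, 12 and 19 reads in PRC1 i2KO and 0 and 4 in Control (edgeR adjusted p = 0.103; limma on log2(TPM + 1) 0.0381, all other alternatives from 0.0564 to 0.314). Il18 had 4, 12 and 4 reads in PRC1 i2KO, against 9 and 13 in Control (edgeR adjusted p = 0.578). Tslp, a cytokine by which keratinocytes act on dendritic cells, had 3, 12 and 16 reads in PRC1 i2KO and 10 and 24 in Control (log2 fold change -0.71, SE 0.87, edgeR adjusted p = 0.574). No difference in Il1a, Il1b, Il18 or Tslp was called at this depth by edgeR.

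Of the 5 antagonists and decoys, which take up a ligand or a receptor without signalling, 4 rose, against 18.8% of all tested genes. Il13ra2 and Il22ra2, nearly absent from Control, passed the filter on low counts only through PRC1 i2KO, where they were high. Il1rn, which blocks the IL-1 receptor, stood at 13.4, 12.2 and 11.2 CPM in PRC1 i2KO, against 0.738 and 1.21 CPM in Control (11.6-fold, log2 fold change 3.53, SE 0.35, edgeR adjusted p = 5.73e-05). Il36rn, which blocks the IL-36 receptor, stood at 5.18, 6.86 and 8.95 CPM in PRC1 i2KO, against 2.71 and 1.8 CPM in Control (log2 fold change 1.69, SE 0.39, edgeR adjusted p = 0.00882; 0.0845 without Control replicate 3). For Il1rn the 3 PRC1 i2KO libraries lay close together and far above both controls.

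Il13ra2, which binds IL-13 and is known as a decoy, had 190, 427 and 113 reads in PRC1 i2KO, against 5 and 0 in Control. These are 19.7, 20.1 and 5.95 CPM in PRC1 i2KO, against 0.615 and 0 CPM in Control (edgeR adjusted p = 0.0177). The size of that rise is poorly fixed: its log2 fold change of 6.66 (SE 1.36) was 11.28 with Control replicate 1 left out and 4.6 with Control replicate 3 left out, where the call was lost (0.0553). Il22ra2, a secreted protein that binds IL-22, had 37, 84 and 45 reads in PRC1 i2KO and none in Control, at least 44.7-fold higher (edgeR adjusted p = 4.94e-04). Il1r2, a decoy for IL-1, had 13, 47 and 21 reads in PRC1 i2KO and 7 and 8 in Control, and did not pass (edgeR adjusted p = 0.187).

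Of 38 signalling receptor genes 22 were tested, of which 7 rose and 4 fell (50% called, against 33.9% over all tested genes). Il31ra (ENSMUSG00000050377) and Osmr encode the 2 chains of the receptor for IL-31, a cytokine of itch, and Osmr also serves oncostatin M. Il31ra stood at 73.3, 77.5 and 158 CPM in PRC1 i2KO, against 969 and 991 CPM in Control, a fall of 9.51-fold (log2 fold change -3.25, SE 0.39, edgeR adjusted p = 0.00364). Osmr stood at 178, 166 and 125 CPM in PRC1 i2KO, against 118 and 97.8 CPM in Control (log2 fold change 0.54, SE 0.16, edgeR adjusted p = 0.0304). The call of Osmr was lost without Control replicate 3 (adjusted p = 0.208), without PRC1 i2KO replicate 1 (0.096) or 2 (0.104), and on log2(TPM + 1) (limma adjusted p = 0.193). Per gene length, Il31ra averaged 47.6 TPM and Osmr 69.2 TPM in PRC1 i2KO, against 515 and 53.5 TPM in Control. Il31, the ligand, had no read.

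**Figure D4:**
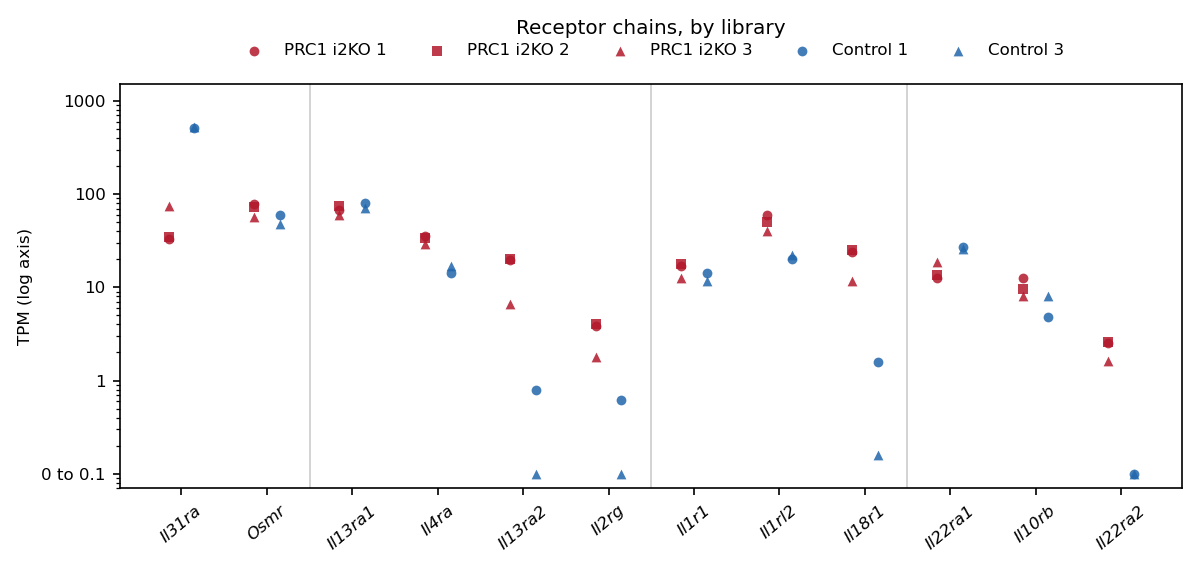
TPM (y axis, log scale, values from 0 to 0.1 drawn at the foot) of 12 receptor and decoy genes (x axis) in each library; red symbols are PRC1 i2KO replicates 1, 2 and 3 and blue symbols Control replicates 1 and 3. Grey lines part the IL-31 receptor, the IL-4 and IL-13 group, the IL-1 family and the IL-22 group. Il31ra is high in Control only, and Il22ra2 is at the foot in both controls. Il13ra2, Il2rg and Il18r1 are at 0.8, 0.62 and 1.59 TPM in Control replicate 1, and at 0, 0 and 0.16 TPM in Control replicate 3.

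Of the signalling receptor chains for IL-4 and IL-13, Il4ra and Il2rg rose and Il13ra1 did not pass. Il4ra, the chain both cytokines share, stood at 76.5, 78.8 and 62.7 CPM in PRC1 i2KO, against 28.1 and 34.0 CPM in Control (2.32-fold, log2 fold change 1.22, SE 0.15, edgeR adjusted p = 2.13e-04). Il13ra1, a signalling partner of Il4ra, was at 160.3, 175 and 133 CPM in PRC1 i2KO and 163 and 147 CPM in Control (log2 fold change 0.01, SE 0.13, edgeR adjusted p = 0.95). Il2rg, the common gamma chain of several interleukin receptors and the other partner of Il4ra, had 36, 80 and 29 reads in PRC1 i2KO and 1 and 0 in Control (edgeR adjusted p = 0.00259). The ratio of its summed reads was 117 (exact 95% binomial interval 20.7 to 4653), and its fitted log2 fold change of 6.42 was 8.94 with Control replicate 1 left out and 4.51 with Control replicate 3 left out. Il4 and Il13 had no read in any library.

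In the IL-1 receptor family, 6 genes lie next to each other on chromosome 1 in RefSeq's order (GRCm38.p6): Il1r2, Il1r1, Il1rl2, Il1rl1, Il18r1 and Il18rap. Il18r1, the binding chain for IL-18, stood at 36.6, 40.5 and 17.6 CPM in PRC1 i2KO, against 2.46 and 0.373 CPM in Control (log2 fold change 5.02, SE 0.89, edgeR adjusted p = 0.0128). Its value was 6.37 with Control replicate 1 left out and 3.67 with Control replicate 3 left out, and without a filter on low counts it was not called (adjusted p = 0.0677). Il1rl2, the IL-36 receptor, stood at 97.2, 79.1 and 70.6 CPM in PRC1 i2KO, against 35.3 and 31.2 CPM in Control (2.48-fold, edgeR adjusted p = 1.77e-04). Il1r1, the IL-1 receptor, was at 53.0, 54.8 and 37.4 CPM in PRC1 i2KO and 38.0 and 31.4 CPM in Control and did not pass (edgeR adjusted p = 0.0705). It was called with PRC1 i2KO replicate 3 left out (0.00312) and without a filter on low counts (0.00737), and not under the others (0.0524 to 0.464). Il18rap, the chain that Il18r1 needs to signal, had 1, 1 and 0 reads in PRC1 i2KO and 0 and 3 in Control. Neighbours in this cluster thus ranged from a called rise to almost no reads. Il1rap, the shared chain of the family, did not pass, at 18.7, 22.7 and 20.7 CPM in PRC1 i2KO and 20.1 and 14.9 CPM in Control (edgeR adjusted p = 0.336).

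The chain for IL-6 and that for IL-11 went opposite ways. Il6ra stood at 12, 14.8 and 22.6 CPM in PRC1 i2KO, against 3.2 and 1.84 CPM in Control (log2 fold change 2.81, SE 0.39, edgeR adjusted p = 4.68e-04), and was 1 of the few genes for which PRC1 i2KO replicate 3 was the farthest from Control. Il11ra1, which overlaps Ccl27a and is nearly identical to Il11ra2, stood at 132, 136 and 167 CPM in PRC1 i2KO, against 239 and 277 CPM in Control (1.78-fold lower, edgeR adjusted p = 8.40e-04). The 2 copies of the IL-11 receptor summed to 139, 139.7 and 171 CPM in PRC1 i2KO, against 242 and 280.5 CPM in Control, so the sum too was lower in every PRC1 i2KO library. Il15ra, which presents IL-15, stood at 19.1, 26.5 and 18.0 CPM in PRC1 i2KO, against 10.5 and 8.68 CPM in Control (2.24-fold, edgeR adjusted p = 0.00428), while Il15 itself had at most 36 reads in a library and did not pass (edgeR adjusted p = 0.281).

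Of the 5 receptor genes of the IL-17 family 1 fell and none rose, against 15.1% and 18.8% of all tested genes. Il17ra, the shared chain, was at 33.4, 46.4 and 39.3 CPM in PRC1 i2KO and 39.5 and 39.1 CPM in Control (log2 fold change 0.02, SE 0.16, edgeR adjusted p = 0.937). Il17rc was at 83.6, 81.1 and 93.4 CPM in PRC1 i2KO and 73.4 and 70.1 CPM in Control, and Il17re, the receptor for IL-17C, at 58.8, 55.5 and 69.0 CPM in PRC1 i2KO and 72.6 and 71.5 CPM in Control (edgeR adjusted p = 0.0862 and 0.167; Il17re was called without PRC1 i2KO replicate 3, 0.0311). Il17rb, the receptor for IL-25, was at 7.05, 5.74 and 4.79 CPM in PRC1 i2KO and 6.03 and 6.28 CPM in Control (edgeR adjusted p = 0.866). Il17rd was the one that fell, at 20.0, 23.9 and 31.2 CPM in PRC1 i2KO, against 46.3 and 42.4 CPM in Control (1.76-fold lower, edgeR adjusted p = 0.00761). Il17a had no read, and Il17f had 1.

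Il22ra1, Il20rb and Il10rb were the tested signalling receptors of the IL-10 and IL-20 group. Of these 1 fell and none rose, against 15.1% and 18.8% of all tested genes. The decoy Il22ra2, which rose, is given above. Il22ra1, the binding chain for IL-22, stood at 19.8, 21.3 and 28.1 CPM in PRC1 i2KO, against 37.8 and 35.1 CPM in Control (1.57-fold lower, edgeR adjusted p = 0.0175). That call was lost when either control was left out (adjusted p = 0.087 for Control replicate 1 and 0.0635 for Control replicate 3), and likewise for replicate 1 (0.0644) or 2 (0.0694) of PRC1 i2KO. Il20rb stood at 63.4, 58.3 and 88.6 CPM in PRC1 i2KO, against 91.2 and 123 CPM in Control, and narrowly missed the threshold (log2 fold change -0.61, SE 0.21, edgeR adjusted p = 0.0587). Several alternatives called it, with adjusted p from 6.54e-06 with no filter on low counts to 0.0499 with RLE size factors, among them DESeq2 (0.0223), the replicate block (0.012), and leaving out Control replicate 1 (0.0367) or PRC1 i2KO replicate 3 (0.00129). Others did not, with adjusted p up to 0.312 without Control replicate 3. Il10rb, the shared chain, was at 11.9, 8.98 and 8.42 CPM in PRC1 i2KO and 4.55 and 8.09 CPM in Control (edgeR adjusted p = 0.197). Il20ra, the partner of Il20rb, was not tested, with 0, 4 and 8 reads in PRC1 i2KO, against 10 and 16 in Control (ratio 0.372, exact 95% binomial interval 0.171 to 0.765).

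A further 29 genes had reads but too few to test. Il2rb had 4, 17 and 1 reads in PRC1 i2KO and none in Control, at least 5.92-fold higher against the floor, and Ccl11 had 7, 8 and 0 reads in PRC1 i2KO and none in Control, at least 4.03-fold higher. Reads of Il12rb2 came mostly from 1 library (2, 47 and 5 in PRC1 i2KO, against 0 and 15 in Control), as did those of Il2 (0, 0 and 14, against 0 and 1), Csf3 (0, 0 and 9, against none) and Csf2 (0, 0 and 6, against none). Ccl21a had 1, 0 and 0 reads in PRC1 i2KO and 0 and 12 in Control. Il11 had 4, 5 and 22 reads in PRC1 i2KO and 1 and 9 in Control (ratio 2.5, exact 95% binomial interval 1.2 to 5.72). Il7r, which binds IL-7, had 2, 7 and 3 reads in PRC1 i2KO and 2 and 5 in Control, the most of the 16 remaining genes. Il25 had no read in PRC1 i2KO and 0 and 6 in Control, at least 2.48-fold lower. A further 5 genes were tested at low levels without a call, namely Ccl1, Ccl28, Il16, Il17d and Il3ra, with at most 59 reads in a library and edgeR adjusted p from 0.351 to 0.821. Among the 34 genes at 0 in all libraries were Il17a, Il22, Il4, Il13, Ccl17, Ccl3, Ccl4 and Cxcl5; a count of 0 over a group allows up to 0.0601 CPM in PRC1 i2KO and 0.0745 CPM in Control. All intervals and floors cover counting error only.

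The genes listed as partners that the choice by symbol left out were called about as often as other genes. That list also holds Cmtm3, Cmtm4, Cmtm6, Cmtm7, Cmtm8 and Txlna, so its share is not that of ligands and receptors alone. Of its 25 genes 19 were tested, of which 3 rose and 3 fell (31.6% called, median log2 fold change 0.01). Over all tested genes 33.9% were called. Lifr, the LIF receptor, stood at 248, 248 and 268 CPM in PRC1 i2KO, against 145 and 126 CPM in Control (1.88-fold, edgeR adjusted p = 1.79e-04). Clcf1, a cytokine of the IL-6 family, stood at 28.8, 20.6 and 25 CPM in PRC1 i2KO, against 47.3 and 42.7 CPM in Control (1.82-fold lower, edgeR adjusted p = 0.00297). Cmtm3 fell 3.56-fold (edgeR adjusted p = 3.75e-04).

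Most receptors for the chemokines had few or no reads. Of 23 chemokine receptor genes 11 had no read and 7 were tested, of which 1 rose and 1 fell (28.6% called, against 33.9% over all tested genes, median log2 fold change 0.61). Ackr4, an atypical receptor that removes chemokines, stood at 67.7, 63.0 and 69.1 CPM in PRC1 i2KO, against 223 and 223 CPM in Control (3.34-fold lower, edgeR adjusted p = 2.22e-06). Ackr2, a scavenger of inflammatory CC chemokines, had 28, 35 and 12 reads in PRC1 i2KO and none in Control, at least 20.2-fold higher (edgeR adjusted p = 0.00786). Ackr3 and Cxcr4, which bind Cxcl12, did not pass, with Ackr3 at 10.9, 12.8 and 14.6 CPM in PRC1 i2KO and 8.37 and 14.1 CPM in Control, and Cxcr4 at 4.77, 4.28 and 6.21 CPM in PRC1 i2KO and 4.06 and 2.77 CPM in Control (edgeR adjusted p = 0.678 and 0.25). Ccr2, Cxcr3 and Ccr6, the receptors for Ccl2, Cxcl10 and Ccl20, had no read in any library.

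Downstream genes of these receptors were read as 2 lists. Of 30 tested genes of IL-1 receptor, IL-17 receptor and NF-κB signalling 15 rose and 1 fell (53.3% called, median log2 fold change 0.35), against 33.9% over all tested genes. Tnip1, which dampens NF-κB, rose 2.56-fold (edgeR adjusted p = 2.77e-05). Myd88, the adaptor through which IL-1 receptors signal, rose 2.39-fold (edgeR adjusted p = 3.23e-04), and Bcl3, a nuclear partner of NF-κB, rose 17.6-fold (edgeR adjusted p = 1.06e-04). Irak3, a brake on this pathway, stood at 28.2, 31 and 20.6 CPM in PRC1 i2KO, against 8.12 and 5.63 CPM in Control (edgeR adjusted p = 2.97e-04). Genes that rose thus include inhibitors as well as an adaptor of the pathway; Tab2, an adaptor of the kinase TAK1, was the one that fell. Of 24 tested JAK, STAT and SOCS genes 7 rose and 3 fell (41.7% called, median log2 fold change 0.03). Over all tested genes 33.9% were called, and over protein-coding ones 37.6%. Cish, Socs3 and Socs1, feedback inhibitors of JAK signalling, rose 5.29-fold, 3.31-fold and 2.49-fold (edgeR adjusted p = 5.09e-04, 0.0033 and 0.0087).

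**Figure D5:**
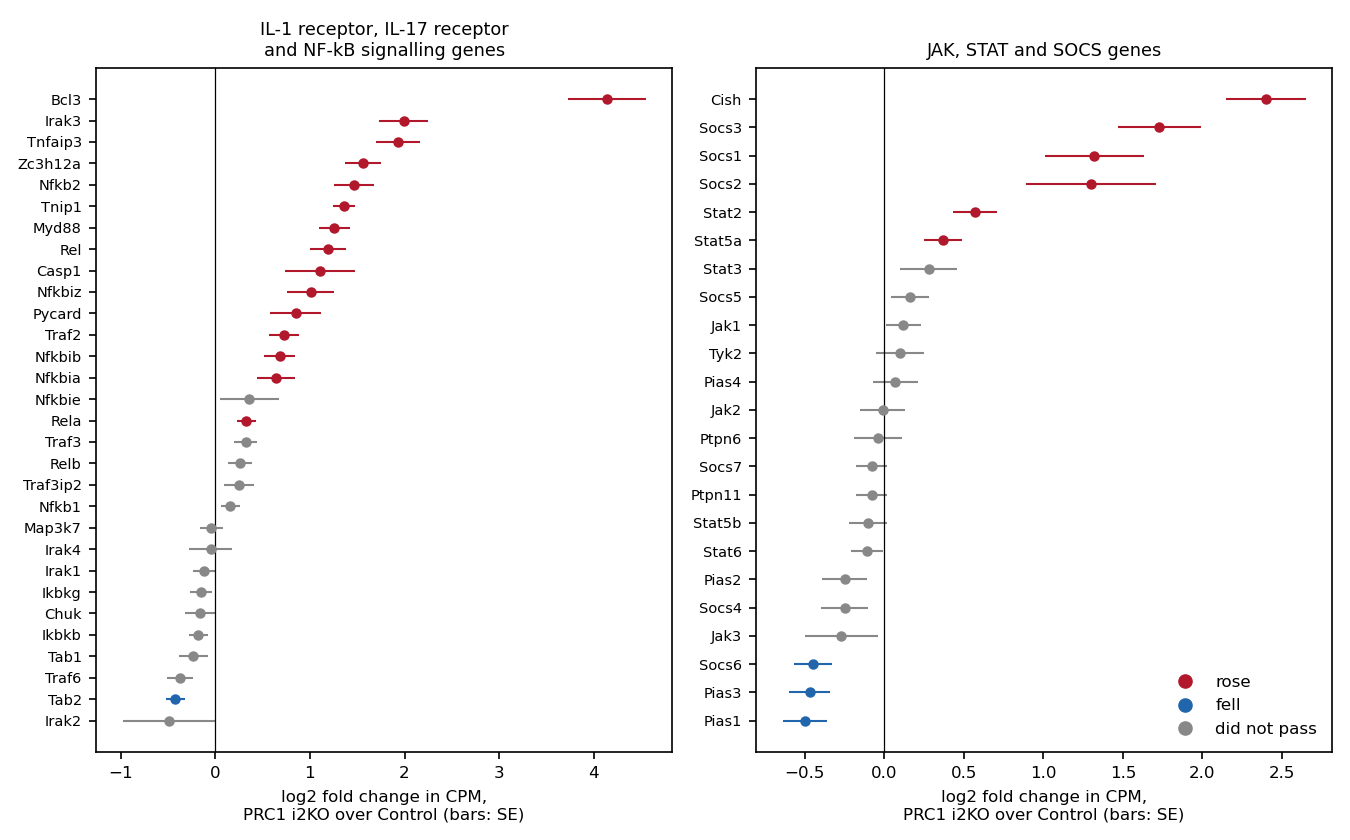
Log2 fold change in CPM (x axes, PRC1 i2KO over Control, bars are SE) of 30 genes of IL-1 receptor, IL-17 receptor and NF-κB signalling and of 23 of the JAK, STAT and SOCS genes. Red points rose (15 and 6), blue points fell (1 and 3) and grey points did not pass; Bcl3 and Cish lead the 2 panels.

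PRC1 i2KO replicate 3 lay nearest to the controls for many of these genes. On log2(CPM + 0.1) it was the nearest of the 3 PRC1 i2KO libraries in 24 of the 31 called genes (77.4%), against 58.5% of all 5310 called genes. It held in 19 of 25 genes that rose and 5 of 6 that fell, and the exceptions included Il6ra, Lif and Il36rn, which were highest in that library. Bulge markers were also highest in replicate 3 within PRC1 i2KO, at 6007 CPM summed, against 4169 and 4343 CPM in replicates 1 and 2, and their part in this was not tested. With replicate 3 left out, all 31 calls stood.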

How the data were processed

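Polyadenylated RNA of 50000 sorted cells per sample was sequenced, 3 PRC1 i2KO and 2 Control samples. The authors deposited 1 table with expected counts (9.06% of genes have a fractional value) and TPM per library, per the file headers; TPM is scaled to gene length and a fixed total. Tools listed, without roles, in the submitters' processing notes are RSEM 1.3.3, STAR 2.7.9a and DESeq2 1.38.2, with the build mm39. Annotation and strandedness: not given in the sources used here; so reads of overlapping and antisense genes cannot be told apart. The control numbered 3 in its title has another number in its description and was matched to the column with number 3.

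Expected counts were rounded and fitted with edgeR 4.0.16 in R 4.3.3 (filterByExpr, TMM factors 0.983 to 1.02, robust quasi-likelihood F test, genotype as the only term, all 5 libraries). Adjustment was by Benjamini-Hochberg over the 15665 genes kept (threshold 0.05). SE is the log2 fold change divided by the square root of F. CPM uses the same scaling. Alternatives were DESeq2 1.42.0, other scalings and filters, limma 3.58.1 on log2(TPM + 1) and log2(TPM + 0.1), a replicate block, and leaving out each library, where a lone control is assumed to vary like the other group. A floor of 3 reads over a group bounds folds against 0 reads. No libraries were merged (chi-square per degree of freedom 9.8 to 39 within groups). Genes given by library are those called, those with a mean of at least 5 CPM and 20 set by name, and from each pathway list up to 4 called genes with the smallest adjusted p. Il20, Tab2, Csf1r and other genes outside that rule were named after their values were seen. A pair of genes of the pathway lists are counted but not reported by name here. Genes, lists and tests were chosen with earlier results of these data known. Promoters are RefSeq's (GRCm38.p6), another build than that of the table.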

Additional observations from a re-analysis of the deposited data

How the results depend on the processing

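Each of the 31 called genes kept its direction under every alternative that gave it a value (Il6 has none under the filter at a mean of 1 CPM), and 16 kept their call under each of them, the replicate block set aside. Genes that rose numbered 25, between 17 and 26 with any 1 library left out, and those that fell 6, between 4 and 8; DESeq2 gave 27 and 7, and limma on unfiltered log2(TPM + 1) gave 17 and 3. Over all genes, 2939 rose and 2371 fell; with 1 library left out 1963 to 3099 rose and 1359 to 2757 fell, both lowest without Control replicate 3. Limma on log2(TPM + 1), on log2(TPM + 0.1) and on unfiltered log2(TPM + 1) gave 1866, 1881 and 1411 rises and 2211, 2055 and 1583 falls, so that falls outnumbered rises (45.8%, 47.8% and 47.1% of calls rose, against 55.3%), with the median gene moved by -0.158, -0.169 and -0.158 on the log2 scale. The labels do not say that replicate numbers mark pairs, and the deviations of same-numbered libraries correlated at 0.0737 and 0.115; with the replicate block 23 of the genes rose and 7 fell, and over all genes 2521 rose and 1900 fell.

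Among the listed partners and signalling genes, the NF-κB list had 15 rises and 1 fall, 8 rises on unfiltered TPM, 2 falls on each TPM scale, and 0 to 2 falls with 1 library left out (0 for Control replicate 3 or PRC1 i2KO replicate 2, 2 for PRC1 i2KO replicate 1). The JAK list had 7 rises and 3 falls, 3 rises and 1 fall on each TPM scale, 1 fall with the replicate block, and 3 to 7 rises and 0 to 3 falls with 1 library left out (3 rises and 1 fall for Control replicate 3, 0 falls for PRC1 i2KO replicate 1 or 2). Chemokine receptors had 1 rise, none (0) on log2(TPM + 1) with or without a filter, and 0 to 1 with 1 library left out (0 for Control replicate 3 or PRC1 i2KO replicate 2); partners had 3 rises, 1 on unfiltered TPM, 1 with the replicate block, and 1 to 2 with 1 library left out (1 for Control replicate 1 or PRC1 i2KO replicate 1 or 2). Causes were not tested.

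Among the genes given by library, signs turned in 4 that did not pass: Il13ra1 (0.01) at -0.16 on each TPM scale, -0.08 with the replicate block and -0.07 to 0.12 with 1 library left out (-0.06 for Control replicate 3); Il17ra (0.02) at -0.30, -0.32 and -0.30 on the TPM scales, -0.11 with the block and -0.11 to 0.14 with 1 library left out; Il17rb (-0.08) at -0.22 to 0.05 with 1 library left out; and Il1rap (0.26) at -0.01 on each TPM scale. Depth limits the genes with under about 10 reads per library.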
